A study of Rattus norvegicus with 6 samples.

Results

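The transcripts described here are those of 10 genes of autophagy and mitophagy, chosen by name: Sqstm1, Map1lc3a, Map1lc3b, Gabarapl1, Becn1, Ulk1, Pink1, Fundc1, Bnip3l and Tfeb. All 10 were present among the 28293 genes of the expression table, and all 10 passed the filter on low values. RNA sequencing was performed on myocardial tissue of wild-type male rats (Rattus norvegicus), with 3 samples of sham-operated rats and 3 samples of rats with ischemia/reperfusion (I/R). In I/R, the left anterior descending (LAD) artery was closed by a ligature for 30 min, and the heart was taken after 6 h of reperfusion. The sham samples carry the same times in their labels, and the same protocol of anesthesia, ventilation and left thoracotomy is given for all samples. The labels number the replicates but do not say that each came from a separate rat, so the p-values measure the spread between these samples. The strain, the age and the region of the ventricle that was sampled are not given in the sources used here.

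Autophagy encloses cytoplasm in a double membrane that then fuses with lysosomes. The ULK1 kinase starts the process, the Beclin 1 lipid kinase complex marks the growing membrane, ubiquitin-like proteins of the ATG8 family (LC3 and GABARAP) are attached to it, and receptors such as p62 tether cargo to ATG8. In mitophagy the cargo is a mitochondrion, marked either by the kinase PINK1 or by receptors of the outer membrane such as FUNDC1 and BNIP3L, and in the heart, whose muscle cells are filled with mitochondria, this clearance is a known part of the response to ischemia and reperfusion. A transcript level does not measure the flux through the pathway.

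On the deposited scale, Map1lc3a, Map1lc3b and Pink1 were higher in I/R than in sham, Bnip3l was lower, and the other 6 genes did not pass the test. Map1lc3a, which encodes the LC3A member of the ATG8 family, rose 3.19-fold between the group means, and Pink1 rose 2.92-fold. Map1lc3b, the gene of LC3B, rose 1.75-fold, and the I/R mean of Bnip3l, the gene of the mitophagy receptor also called NIX, was 0.598 of the sham mean. Of all 10942 genes tested, 25.5% were called higher and 7.36% lower, beside 3 and 1 of the 10 genes. These counts are near the shares of all genes and are no result about the 10 as a group. Without sham replicate 2, 0 of the 10 passed the limma test in either direction. On a scale that leaves out the mitochondrially encoded genes, only Map1lc3a was still called higher, the difference of Map1lc3b turned to -0.19, Bnip3l was still lower and Ulk1 was called lower as well. After quantile normalization 0 of the 10 were higher and 1 was lower, where 13.2% and 14.2% of all genes were called. Centred on cardiomyocyte markers, 0 were higher and 8 lower, where 0.329% and 80.7% of all genes were called. With no filter on low values 0 of the 10 passed the test. Levels are in FPKM, the fragments of a gene divided by its length and by the library's total. Differences are in log2(FPKM + 0.1), I/R minus sham, with the standard error (SE) and the Benjamini-Hochberg adjusted p of limma over all genes tested, called under 0.05. In bulk tissue, more cells of a type and more RNA per cell cannot be told apart.

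The promoters of the called genes were looked up in RefSeq (build GRCr8), in windows from 250 bases before to 50 bases after the start of the gene. The table used here held promoters of 6 of the 10 genes, among them Pink1 and Map1lc3b of the called genes. The gene-strand sequences of these 2 are shown because both transcripts rose, from 250 bases before the start to its first base. Pink1 lies on the minus strand at chr5:155825950-155826200 and Map1lc3b on the plus strand at chr19:66574345-66574595. Capitals mark matches to the motifs searched.
Pink1: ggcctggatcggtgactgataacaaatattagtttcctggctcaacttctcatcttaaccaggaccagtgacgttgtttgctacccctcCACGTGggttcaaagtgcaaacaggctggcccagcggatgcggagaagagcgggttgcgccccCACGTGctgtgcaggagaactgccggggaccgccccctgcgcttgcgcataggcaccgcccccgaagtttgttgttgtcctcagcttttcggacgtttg
Map1lc3b: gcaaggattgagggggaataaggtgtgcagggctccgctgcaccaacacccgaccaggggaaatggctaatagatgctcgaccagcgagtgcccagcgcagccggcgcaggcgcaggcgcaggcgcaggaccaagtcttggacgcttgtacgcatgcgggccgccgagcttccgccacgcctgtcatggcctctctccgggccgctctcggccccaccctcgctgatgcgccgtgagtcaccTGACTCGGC

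The letters searched on both strands were the core of the CLEAR motif bound by TFEB (TCACGTGA), the E-box (CACGTG, which every CLEAR core contains), an antioxidant response element (TGACNNNGC) and a FOXO site (TGTTTAC). The Pink1 window held 2 E-boxes, one from 161 to 156 and one from 98 to 93 bases before the start. The E-box reads the same on both strands and was found in 6.42% of all 33469 promoters. The Map1lc3b window held 1 match to the antioxidant response element, TGACTCGGC, from 8 bases before the start to its first base, a motif found in 12.1% of promoters. None of the 6 windows (Gabarapl1, Map1lc3b, Pink1, Sqstm1, Tfeb and Ulk1) held the CLEAR core or the FOXO letters, found in 0.777% and 3.78% of promoters, and no other match to the 4 motifs was found in them. These matches describe letters in a window, and binding was not measured.

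The scale of the libraries bears on every value below. The library totals lay between 42221073 and 49848438 fragments in the sham samples and between 36848184 and 39480833 in the I/R samples. The 13 mRNAs encoded by the mitochondrial genome took 80.1%, 85.1% and 86.2% of the summed FPKM in sham and 61.8%, 70.9% and 71.5% in I/R. All other genes together therefore held between 11022352 and 13394169 fragments in sham and between 15479730 and 20179740 in I/R. The median log2 difference of all genes was 0.29 on the deposited scale. When FPKM were rescaled to the genes outside the mitochondrial genome, the median fell to -0.65, and when they were centred on cardiomyocyte markers it fell to -1.93. Which scale shows the change per cell was not tested, and differences relative to the median of all genes are given beside the others. Rescaling a library shifts all its genes nearly alike. The relative differences are therefore nearly the same on the deposited and rescaled scales by construction. After quantile normalization they were 0.88 for Map1lc3a, 0.52 for Pink1 and 0.087 for Map1lc3b. For Ulk1 and Bnip3l they were -0.22 and -1.24. Becn1, Gabarapl1 and Sqstm1 turned from 0.20, 0.096 and 0.20 on the deposited scale to -0.055, -0.50 and -0.43 after quantile normalization. Fundc1 and Tfeb had relative differences of 0.12 and 0.26 on the deposited scale and 0.10 and 0.23 after quantile normalization.

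Markers of heart muscle moved with the groups. The 6 cardiomyocyte markers in the table (Myh6, Tnnt2, Tnni3, Actc1, Myl2 and Ryr2) summed to 10510, 3648 and 3219 FPKM in the sham samples and to between 21170 and 30371 FPKM in the I/R samples, and 5 of the 6 were called higher with a median log2 difference of 2.10. Sham replicate 1 held the highest sum of the sham samples. Markers of neutrophils and monocytes summed to between 19.4 and 30.3 FPKM in sham and between 55.9 and 121 FPKM in I/R. Of the 9 listed, 6 passed the filter and 4 were called higher by limma (S100a8, S100a9, Lcn2 and Cd14). Csf3r was not called (adjusted p = 0.150), and Fcgr3a differed by -0.84 (adjusted p = 0.377). Fibroblast markers summed to between 419 and 578 FPKM in sham and between 594 and 656 FPKM in I/R, with 1 of 7 called higher, and 0 of 7 endothelial markers were called by limma, with 2 of them at an unadjusted p under 0.05. Of all genes tested, 25.5% were called higher and 7.36% lower. The part of these cell types in the values of the 10 genes was not tested.

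Ulk1 encodes the kinase that starts autophagy. Its levels were 4.44, 5.09 and 3.17 FPKM in sham and 5.13, 4.43 and 4.12 FPKM in I/R. The 2 groups overlapped, with sham replicate 3 lowest and the other samples close together. The log2 difference was 0.13 ± 0.24 (SE, n = 3 a group, adjusted p = 0.717). Rescaled without the mitochondrial genes, it was -0.84 with an adjusted p of 0.0224, and relative to the median of all genes it was -0.17 on the deposited scale and -0.19 on the rescaled one.

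Becn1 encodes Beclin 1, the subunit around which the lipid kinase complex of autophagy is built. It was measured at 6.26, 8.51 and 6.43 FPKM in sham and at 13.7, 7.94 and 8.79 FPKM in I/R. The groups overlapped, since sham replicate 2 exceeded I/R replicate 2, and I/R replicate 1 stood above the rest. The log2 difference of 0.49 ± 0.27 did not pass the test (adjusted p = 0.184).

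The ATG8 family members come next. Map1lc3a was the most abundant of the 10 genes per kilobase in both groups, at 260.7, 90.2 and 86.7 FPKM in sham and at 589.7, 443 and 364 FPKM in I/R. Every I/R sample was above every sham sample, and sham replicate 1 was far above the other sham samples, as it was for the cardiomyocyte markers. The means were 146 ± 99.5 FPKM in sham and 466 ± 114 FPKM in I/R (SD, n = 3). The log2 difference was 1.85 ± 0.42 (SE, adjusted p = 0.0101), and 4.81% of all genes tested had a larger one. Relative to the median of all genes it was 1.56 on the deposited scale and 1.51 on the scale without mitochondrial genes, where the difference itself was 0.86 (adjusted p = 0.0423). It was 2.37 without sham replicate 1 (adjusted p = 0.000734) and 1.60 without sham replicate 2, where it no longer passed the test (adjusted p = 0.0556). Centred on the cardiomyocyte markers, the difference turned to -0.37 (adjusted p = 0.374), and after quantile normalization it was 0.86 (adjusted p = 0.0540).

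Map1lc3b, whose product is the LC3 most often used as an autophagosome marker, stood at much lower levels. It had 11.2, 12.5 and 9.89 FPKM in sham and 24.3, 16.6 and 17.8 FPKM in I/R. The groups did not overlap, and I/R replicate 1 was the highest sample. The means of 11.2 ± 1.31 and 19.6 ± 4.16 FPKM (SD, n = 3) gave a log2 difference of 0.79 ± 0.24 (SE, adjusted p = 0.0296). On the scale without mitochondrial genes it was -0.19 (adjusted p = 0.527), and after quantile normalization it was 0.065 (adjusted p = 0.790). Centred on the cardiomyocyte markers it was called lower, at -1.43 (adjusted p = 0.00665), so the direction depended on the scale. Relative to the median of all genes it was 0.50 and 0.46 on the deposited and rescaled scales. The call was lost when sham replicate 2 or 3 or I/R replicate 1 or 3 was left out, with differences between 0.62 and 0.87.

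Gabarapl1 encodes a member of the GABARAP branch. It was found at 34.9, 29.9 and 21.3 FPKM in sham and at 39.0, 41.2 and 30.9 FPKM in I/R, with overlap, as I/R replicate 3 was below sham replicate 1. Its log2 difference was 0.39 ± 0.26 (adjusted p = 0.270), and -0.60 on the scale without mitochondrial genes (adjusted p = 0.0525). The other 2 GABARAP genes in the table were both called higher. Gabarap had 53.7, 40.8 and 36.6 FPKM in sham and 96.7, 73.9 and 71.3 FPKM in I/R, a log2 difference of 0.89 (adjusted p = 0.0229), while that of Gabarapl2 was 0.80 (adjusted p = 0.0310). Both directions turned without the mitochondrial genes, to -0.10 and -0.18.

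Sqstm1 encodes p62, the receptor that carries ubiquitinated cargo to ATG8. Its levels were 43.3, 28.9 and 25.8 FPKM in sham and 61.5, 34.9 and 41.6 FPKM in I/R. Sham replicate 1 was above 2 of the 3 I/R samples, so the groups overlapped. The log2 difference was 0.49 ± 0.29 and did not pass the test (adjusted p = 0.227). It was -0.50 on the scale without mitochondrial genes (adjusted p = 0.101).

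**Figure D1:**
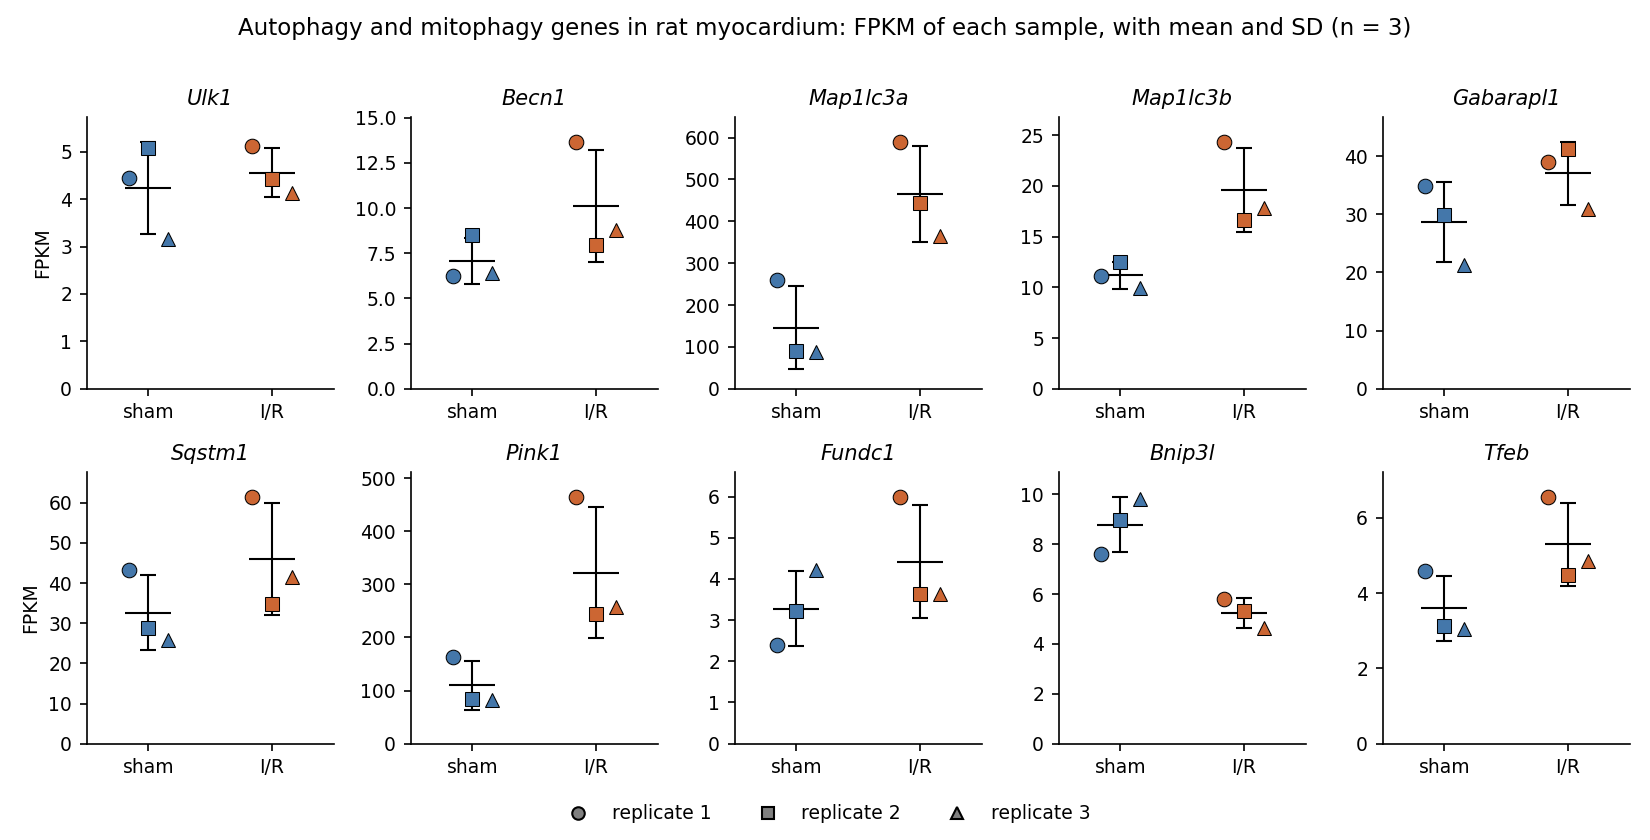
FPKM of the 10 genes in each sample, 1 panel a gene with its own axis from 0, with sham in blue, I/R in orange, a symbol for each replicate number, and the mean with SD (n = 3) in black. Map1lc3a, Map1lc3b and Pink1 have all I/R samples above all sham samples, Bnip3l has all below, and the groups of the other 6 genes overlap.

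Among the mitophagy genes, Pink1 encodes the kinase that accumulates on damaged mitochondria and marks them for removal. It was measured at 163, 84.4 and 82.8 FPKM in sham and at 465, 244 and 257 FPKM in I/R. The groups did not overlap, and replicate 1 was the highest sample within each. The means were 110 ± 46.1 and 322 ± 124 FPKM (SD, n = 3), and the log2 difference was 1.56 ± 0.35 (SE, adjusted p = 0.0103), with 7.82% of all genes above it. Relative to the median of all genes it was 1.27 on the deposited scale and 1.22 on the scale without mitochondrial genes, where the difference itself was 0.57 and did not pass the test (adjusted p = 0.108). After quantile normalization it was 0.50 (adjusted p = 0.154), and centred on the cardiomyocyte markers it turned to -0.66 (adjusted p = 0.118). Without sham replicate 1 it was 1.88 (adjusted p = 0.00321), and without sham replicate 2 it was 1.40 (adjusted p = 0.0551).

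Fundc1 encodes an outer membrane receptor of hypoxia-induced mitophagy. It was the least abundant of the 10 in both groups, at 2.39, 3.23 and 4.21 FPKM in sham and at 5.99, 3.62 and 3.64 FPKM in I/R. The groups overlapped, and apart from I/R replicate 1 the I/R samples lay within the sham range. The log2 difference was 0.42 ± 0.29 (adjusted p = 0.289).

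Bnip3l, the other receptor of the outer membrane, was the only 1 of the 10 called lower on the deposited scale. Its levels were 7.59, 8.96 and 9.80 FPKM in sham and 5.82, 5.30 and 4.62 FPKM in I/R. Every I/R sample was below every sham sample, and the sham sample nearest to I/R was replicate 1. From 8.78 ± 1.12 FPKM in sham the mean went to 5.25 ± 0.600 FPKM in I/R (SD, n = 3), a log2 difference of -0.73 ± 0.22 (SE, adjusted p = 0.0292), and 89.3% of all genes had a larger difference. The difference was -1.71 without the mitochondrial genes (adjusted p = 0.000938) and -1.26 after quantile normalization (adjusted p = 0.00719). After rescaling to TPM, which sets every library to the same sum, it was -0.54 and did not pass the test (adjusted p = 0.125). Relative to the median of all genes it was -1.02 on the deposited scale and -1.05 on the scale without mitochondrial genes. On the deposited scale the call was lost without sham replicate 2 or 3 or I/R replicate 2 or 3, with differences between -0.74 and -0.64. Bnip3, its paralog, had 12.2, 17.6 and 9.39 FPKM in sham and 11.6, 10.7 and 8.55 FPKM in I/R, with overlap and a log2 difference of -0.31 (adjusted p = 0.414).

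Tfeb encodes the transcription factor that drives lysosomal and autophagy genes. It was found at 4.60, 3.14 and 3.05 FPKM in sham and at 6.56, 4.49 and 4.85 FPKM in I/R. Sham replicate 1 was above I/R replicate 2, and the other sham samples were below all I/R samples. Its log2 difference of 0.55 ± 0.25 did not pass the test (adjusted p = 0.119), and was -0.41 on the scale without mitochondrial genes (adjusted p = 0.194).

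**Figure D2:**
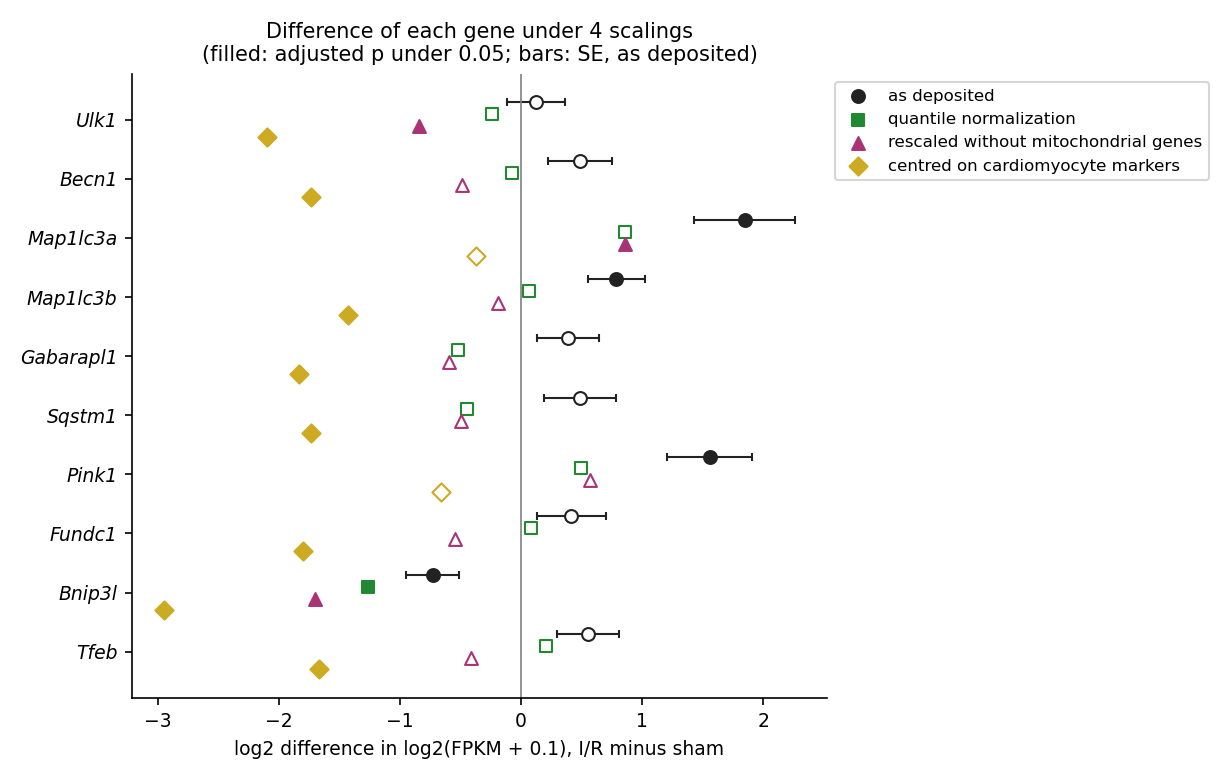
Log2 difference in log2(FPKM + 0.1), I/R minus sham, of each gene on the deposited scale (black circles with SE), after quantile normalization (green squares), rescaled without mitochondrial genes (purple triangles) and centred on cardiomyocyte markers (yellow diamonds), filled where the adjusted p is under 0.05. Bnip3l lies below 0 on all 4 scales, Map1lc3a and Pink1 lie above 0 on 3 of them, and all 10 genes lie below 0 when centred on cardiomyocyte markers.

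Across the 10 genes, 9 log2 differences were above 0 on the deposited scale. The median of the 10 was 0.49, beside 0.29 for all genes tested. Among genes with a mean of at least 5 FPKM this order turned, with 0.49 for the 7 tested there and 0.66 for all. Of those 3784 genes, 1892 were called higher and 166 lower, beside 3 and 1 of the 7. The groups did not overlap for 3 genes that were higher and 1 that was lower, where 37.2% and 13% of all genes did not overlap in these directions. With 3 samples against 3, an exact permutation test of a single gene cannot go below 0.1, and it gave 0.1 for these 4 genes. Of the 10 genes, 8 had their highest value in I/R replicate 1, the sample with the lowest mitochondrial share, and 7 had their lowest value in sham replicate 3, the sample with the highest. Rescaled without mitochondrial genes, 2 of the 10 differences were above 0, those of Map1lc3a and Pink1, with 1 gene called higher (Map1lc3a) and 2 lower (Ulk1 and Bnip3l). On that scale 5.32% of all genes were called higher and 38.7% lower.

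The levels of the 10 genes spanned a wide range per kilobase. In sham the order of the mean FPKM was Map1lc3a, Pink1, Sqstm1, Gabarapl1, Map1lc3b, Bnip3l, Becn1, Ulk1, Tfeb and Fundc1, from 146 to 3.28 FPKM. The ranges of Map1lc3a and Pink1 overlapped, as did those of Sqstm1 and Gabarapl1, Bnip3l and Becn1, Ulk1 and Tfeb, and Tfeb and Fundc1. Within each sham sample, Map1lc3a was above Pink1 and Bnip3l above Becn1. The order of the other overlapping pairs differed between sham samples. In I/R the first 5 genes kept this order, from 466 FPKM for Map1lc3a to 19.6 FPKM for Map1lc3b, followed by Becn1 at 10.1 FPKM. Bnip3l went from the sixth place to the eighth, after Tfeb, and its samples overlapped with those of Tfeb and of Ulk1.

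The counts behind these levels were recovered from the FPKM. They ran from 187 fragments of Fundc1 in 1 sample to 37772 fragments of Pink1 in another. Counting error was at most 7.31% for Fundc1 and at most 4.48% for the other 9 genes. The spread between samples of a group, given as a coefficient of variation, lay between 11.3% for Ulk1 in I/R and 68.2% for Map1lc3a in sham. Depth therefore added less to the error than the differences between samples did. Reads of closely related copies may be split or dropped in such counting, and how this was handled for the ATG8 genes is not given in the sources used here.

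The make-up of the ATG8 family was compared within each sample, which needs no scaling between libraries. Map1lc3a took 71.0%, 49.5% and 53.6% of the summed FPKM of the 5 genes in sham and 77.0%, 75.4% and 73.6% in I/R. The share of Map1lc3a was thus higher in every I/R sample than in any sham sample, with sham replicate 1 close to the I/R samples. Its mean went from 58.1 ± 11.4% to 75.3 ± 1.67% (SD, n = 3, two-sided exact permutation p = 0.1, the smallest possible). The share of Gabarapl1 was lower in every I/R sample than in any sham sample, with means of 13.0 ± 3.47% in sham and 6.12 ± 0.964% in I/R (exact permutation p = 0.1). Gabarap held 19.9 ± 4.55% in sham and 13.2 ± 1.05% in I/R (exact permutation p = 0.1), Map1lc3b 5.34 ± 2.03% and 3.20 ± 0.391% (exact permutation p = 0.3), and Gabarapl2 3.69 ± 1.64% and 2.16 ± 0.0811% (exact permutation p = 0.4). The shares of 1 sample add up to the whole, so a larger share of Map1lc3a lowers those of the others.

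**Figure D3:**
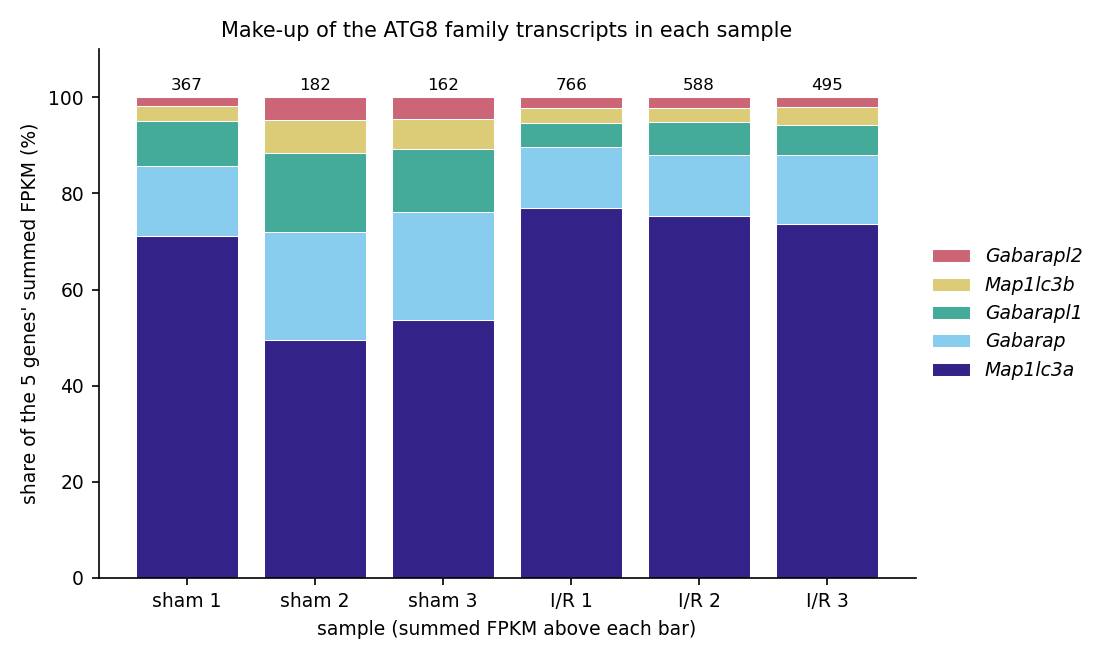
Share of each ATG8 gene in the summed FPKM of the 5 genes (percent, stacked bars), 1 bar a sample, with the sum in FPKM above each bar. The Map1lc3a share is between 73.6% and 77.0% in the I/R samples and between 49.5% and 71.0% in the sham samples, and the sums are 495 to 766 FPKM and 162 to 367 FPKM.

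Ratios of gene pairs within a sample were compared for 6 pairs. The log2 ratio of Gabarapl1 to Gabarap was -0.62, -0.45 and -0.78 in sham and -1.31, -0.84 and -1.20 in I/R. It was lower in every I/R sample, by 0.50 on average (two-sided exact permutation p = 0.1, adjusted p = 0.36 over the 6 pairs). The log2 ratio of Map1lc3b to Map1lc3a differed by -1.06 (exact permutation p = 0.2), that of Sqstm1 to the receptor gene Nbr1 by 0.80 (p = 0.3), and that of Bnip3l to Bnip3 by -0.42 (p = 0.2), all with overlap between the groups. The differences of Gabarapl1 to Map1lc3b and of Ulk1 to Ulk2 were -0.40 (exact permutation p = 0.3) and -0.18 (exact permutation p = 0.9). None of the 6 passed the test, which could not have gone below 0.1.

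Of the other genes of the pathway, 85 were listed by step, 79 were in the table and 74 were tested. By limma, 19 were higher (25.7%) and 4 lower (5.41%), near the 25.5% and 7.36% of all genes, so these counts are no result about the pathway. In all, 47 of the 74 differences were above 0, with a median of 0.27 beside 0.29 for all genes. The count of higher calls went down to 12, 8, 6, 8 and 11 without sham replicate 1, 2 or 3 or I/R replicate 1 or 2, and that of lower calls to 1 without sham replicate 2 and to 2 without sham replicate 3 or I/R replicate 1 or 3. Pairing the samples by replicate number, which no label states, added 4 calls, Atg101, Marchf5 and Rab7a higher and Mitf lower. These genes, Parl and Rb1cc1 are named after their values were seen. Of the 23 genes called, 6 passed the test whichever 1 sample was left out: Rubcn, Optn, Bag3, Phb2, Parl and Vdac1. Centred on the cardiomyocyte markers, 0 of the 74 were higher and 65 lower, so none of the higher calls below held on every scale. The mitophagy list held more of the higher calls than any other list, 10 of 14, with 0 lower and a median of 0.83. An unadjusted p under 0.05 was reached by 12 of its genes in the higher and 0 in the lower direction. Many of its genes encode mitochondrial proteins that heart muscle also needs for other work, and a link of this with the calls was not tested. Without the mitochondrial genes in the scaling, 1 of the 14 was higher and 2 lower, where 5.32% and 38.7% of all genes were called. The median was -0.14 there, beside -0.65 for all genes. After quantile normalization 3 of the 14 were higher and 1 was lower, where 13.2% and 14.2% of all genes were called. The median was then 0.45, beside -0.02 for all genes.

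Vdac1, the gene of the main channel of the outer mitochondrial membrane, had 15.2, 6.99 and 6.07 FPKM in sham and 58.9, 26.9 and 27.9 FPKM in I/R. All I/R samples were above all sham samples, replicate 1 was again highest in each group, and the log2 difference was 2.02 (adjusted p = 0.00671). Phb2, which encodes prohibitin 2, an inner membrane protein that binds LC3, rose by 1.56 (adjusted p = 0.00759). Oma1, the gene of an inner membrane protease, was higher by 1.22 (adjusted p = 0.0333) at low levels. It had 0.448, 0.738 and 0.559 FPKM in sham (36, 70 and 51 fragments) and 2.35, 0.839 and 1.57 FPKM in I/R. With means of 0.582 and 1.59 FPKM, Oma1 reached the naming limit of 1 FPKM only through I/R. On the scale without mitochondrial genes the difference of Vdac1 was 1.04 (adjusted p = 0.0137), while those of Phb2 and Oma1 were 0.57 and 0.33 and did not pass the test. After quantile normalization limma called Vdac1 and Oma1 higher (adjusted p = 0.0357 and 0.0325) and did not call Phb2 (adjusted p = 0.0751).

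Of the cargo receptors, 3 of 7 were higher and 0 were lower, where 25.5% and 7.36% of all genes were called. After quantile normalization 1 of the 7 was higher and 1 lower, with a median of -0.45 beside -0.02 for all genes. Without the mitochondrial genes 1 was higher and 3 were lower, where 5.32% and 38.7% of all genes were called. The median was -0.77 there, beside -0.65 for all genes. Bag3, a co-chaperone that delivers misfolded proteins of the sarcomere to autophagy, had 30.0, 13.6 and 11.9 FPKM in sham and 116, 76.3 and 68.5 FPKM in I/R. Its log2 difference of 2.32 (adjusted p = 0.00350) remained 1.33 without the mitochondrial genes (adjusted p = 0.00254). Optn, the gene of the receptor optineurin, rose by 1.35 (adjusted p = 0.00880) and Tollip by 0.76 (adjusted p = 0.0228). Neither was called on the scale without mitochondrial genes, where they differed by 0.37 and -0.20. Nbr1 differed by -0.31 with overlap (adjusted p = 0.383).

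Of the 4 other genes of the ULK1 complex, 0 were called by limma, while the paired limma fit called Atg101 higher (adjusted p = 0.0478). At an unadjusted p under 0.05 there were 2, Atg101 with a log2 difference of 0.63 and Rb1cc1 with -0.80. Ulk2, the paralog of Ulk1, differed by 0.30 with overlap (adjusted p = 0.418). In the lipid kinase list of 8 genes 1 was called, Rubcn, the gene of the autophagy inhibitor Rubicon, with 6.29, 8.49 and 5.89 FPKM in sham and 3.14, 3.97 and 3.48 FPKM in I/R. It was lower in every I/R sample, with a log2 difference of -0.93 (adjusted p = 0.0142), and was -1.90 without the mitochondrial genes (adjusted p = 0.000676). Of 7 genes of phagophore growth 1 was higher, Wdr45b, by 0.92 (adjusted p = 0.0427), which turned to -0.05 without the mitochondrial genes.

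Of the 8 tested genes of ATG8 conjugation, Atg10 was higher by 1.30 (adjusted p = 0.0123) and Atg4d, a protease of ATG8 proteins, by 0.95 (adjusted p = 0.0206), while Atg16l2 was lower. Atg16l2, a paralog of the conjugation scaffold Atg16l1, had 1.57, 2.41 and 1.71 FPKM in sham and 0.339, 1.18 and 0.917 FPKM in I/R, a log2 difference of -1.24 (adjusted p = 0.0371). Among the 12 genes of fusion with lysosomes 1 was lower, Epg5, a tether for that fusion, named here after its values were seen. It had 0.709, 1.51 and 0.978 FPKM in sham and 0.294, 0.506 and 0.369 FPKM in I/R. The log2 difference was -1.22 (adjusted p = 0.0306). Its I/R mean of 0.389 FPKM was under the filter of 0.5 FPKM, which Epg5 passed only through its sham values. In the paired fit Rab7a, the gene of a small GTPase of late endosomes, was also called, higher by 0.64 (adjusted p = 0.0389). In upstream control, Prkab1, a subunit of the energy sensor AMPK, was higher by 0.79 (adjusted p = 0.0288), and Flcn, a regulator of TFEB location, was lower by -0.76 (adjusted p = 0.0499). The 3 genes lower in these lists stayed lower on the scale without mitochondrial genes, with -2.14 for Atg16l2, -2.06 for Epg5 and -1.73 for Flcn. The differences of Atg10, Atg4d and Prkab1 were 0.38, -0.02 and -0.19 there and no longer passed the test. After quantile normalization limma called Atg10 higher, by 1.20 (adjusted p = 0.0148), and did not call Atg4d or Prkab1.

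**Figure D4:**
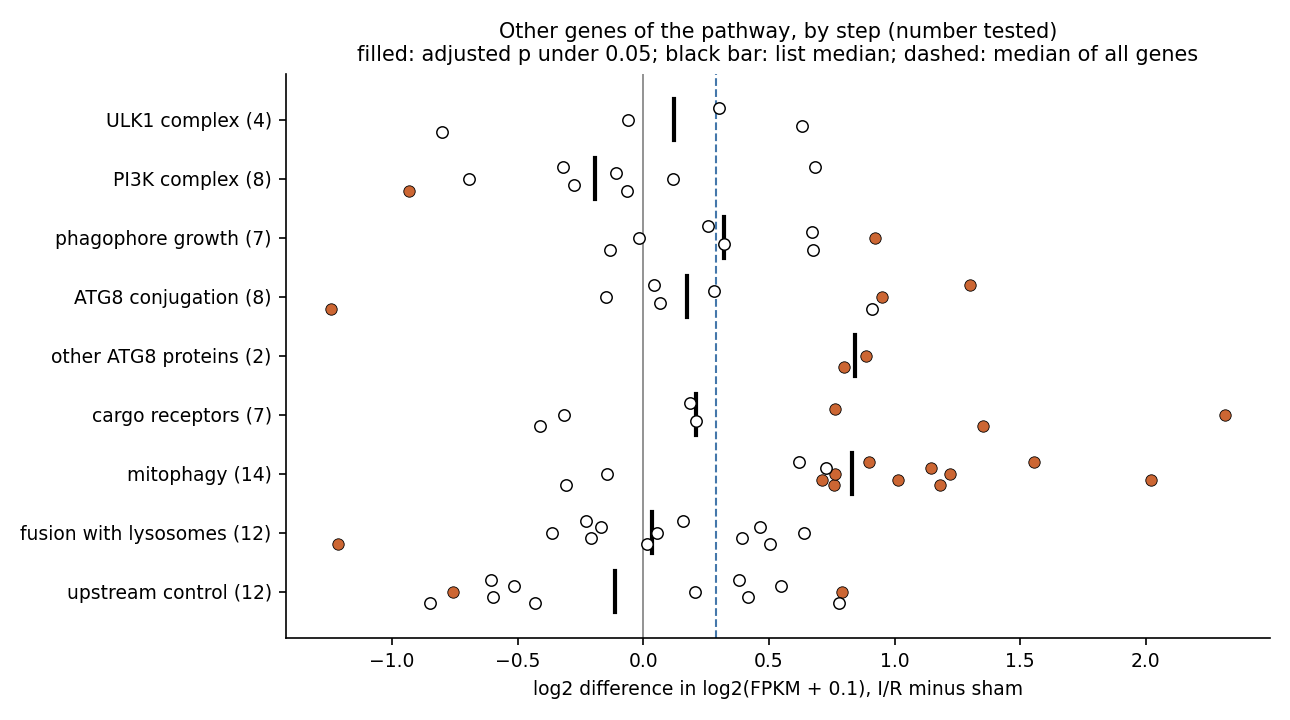
Log2 difference in log2(FPKM + 0.1), I/R minus sham, of the 74 other pathway genes, 1 row a step with the number tested, filled where the adjusted p is under 0.05, with the list median as a black bar and the median of all genes (0.29) dashed. Most filled points to the right are in the mitophagy row, where 10 of 14 were called higher, and the 4 filled points below 0 are Rubcn, Atg16l2, Epg5 and Flcn.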

How the data were processed

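RNA was extracted with Trizol, libraries were made with a stranded total RNA kit, and the authors deposited FPKM per gene for the 6 samples. STAR and HTSeq are named in the submitters' processing notes, and their versions, the genome build, the annotation and the strand setting are not given in the sources used here. Of 30452 rows, 7092 had no symbol and were kept under their gene identifier. Rows with the same symbol were summed, which gave 28293 genes. Genes with a mean of at least 0.5 FPKM were tested on log2(FPKM + 0.1) with limma 3.58.1 (R 4.3.3, trended variance, no covariates) and Benjamini-Hochberg adjustment over all 10942 genes. The fit was checked on simulated data. The members and the gene lists were chosen with earlier results of these data known.

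The FPKM came out as whole fragments for 10979 of 10981 rows above the filter (within 0.005 fragment plus the rounding of the printed values), with library totals of 36848184 to 49848438. Whether reads or pairs were counted is not given. These counts entered limma voom, an alternative added after the data were seen. Counting errors cover counting only.

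The labels number the replicates but do not state that equal numbers form a pair. With the group means removed, sham and I/R samples of equal number correlated only weakly, at 0.203, 0.117 and 0.118. For numbers 1 and 2 the best partner was the sample of the same number, and for number 3 it was a sample of another number. Pairing by number is therefore an assumption, and the paired fit was run beside the unpaired one. Of the pathway lists, genes used in a ratio and up to 3 genes a list were named, those with the largest change among genes called, with a mean of at least 1 FPKM and groups without overlap. Alternatives were another pseudocount, filter or scaling, another test setting and leaving out each sample. Atg4a, Atg4b, Calcoco2, Rhot1 and Tfe3 were not analysed here.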

Additional observations from a re-analysis of the deposited data

How the results depend on the processing

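On the deposited scale the 3 higher calls and the 1 lower call of the 10 genes were the same in number with a pseudocount of 1 or 0.01, at a mean of at least 5 FPKM (where Ulk1, Fundc1 and Tfeb were not tested), without the variance trend, with the highest row of a symbol and with voom on recovered fragments. The replicate block, which pairs samples by number, gave 3 and 1 as well, 22 and 5 of the pathway genes and 3085 and 895 of all genes, and changed no other call among the 10. With no filter on low values, 28293 genes were tested, and 0 of the 10 were called either way, 0 and 1 of the pathway genes, and 152 and 47 of all genes. Higher calls among the 10 numbered 0 after quantile normalization, 1 without mitochondrial genes and 0 when centred on cardiomyocyte markers. Lower calls numbered 0 after rescaling to TPM, 2 without mitochondrial genes and 8 when centred on cardiomyocyte markers. With 1 sample left out, 0 to 3 were higher and 0 to 1 lower.

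Of the pathway genes, 12 were higher and 12 lower after median centring, 5 and 17 after quantile normalization, 2 and 33 without mitochondrial genes, 0 and 65 when centred on cardiomyocyte markers, with 2 lower at a mean of at least 5 FPKM and 2 lower after rescaling to TPM. With 1 sample left out, 6 to 16 were higher and 1 to 3 lower. Of all genes, 1441 were higher and 1559 lower after quantile normalization, 581 and 4219 without mitochondrial genes, 36 and 8827 when centred on cardiomyocyte markers, with 1554 lower after median centring, 504 after rescaling to TPM and 166 at a mean of at least 5 FPKM. With 1 sample left out, 1528 to 2557 were higher and 309 to 881 lower. Of the calls, 77.6% were higher on the deposited scale, 87.3% after rescaling to TPM, 91.9% at a mean of at least 5 FPKM, 56.5% after median centring, 48.0% after quantile normalization, 12.1% without mitochondrial genes and 0.406% when centred on cardiomyocyte markers.

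Single differences changed sign with the scale. Ulk1 was -0.12 after median centring and between -0.065 and 0.27 with 1 sample left out, the lowest without sham replicate 3. After quantile normalization, Ulk1 was -0.24, Becn1 -0.077, Gabarapl1 -0.52 and Sqstm1 -0.45. Without mitochondrial genes, Ulk1 was -0.84, Becn1 -0.49, Map1lc3b -0.19, Gabarapl1 -0.60, Sqstm1 -0.50, Fundc1 -0.55 and Tfeb -0.41. Centred on cardiomyocyte markers, Ulk1 was -2.09, Becn1 -1.73, Map1lc3a -0.37, Map1lc3b -1.43, Gabarapl1 -1.83, Sqstm1 -1.73, Pink1 -0.66, Fundc1 -1.80 and Tfeb -1.67. Bnip3l was below 0 under every alternative run. Of 187 alternative values of the 10 genes, 146 kept their direction and side of the threshold, 19 lost the call and 22 changed sign, and the cause was not tested. Counting error was small at this depth, and the 3 samples a group limit the precision.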
